A study of Homo sapiens with 4 samples.

Results

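Tetraspanins are small membrane proteins with 4 transmembrane segments that gather integrins, immunoglobulin superfamily receptors and proteases into patches of the plasma membrane and of endosomal vesicles. CD81 is found on B cells and many other cells, CD37 and CD53 are tetraspanins of leukocytes, and CD151 binds laminin-receptor integrins. CD9 is known on many cell types, including platelets and subsets of plasma cells. The 8 genes described here, CD9, CD81, CD82, CD151, CD37, CD53, TSPAN3 and TSPAN4, were taken by symbol from the gene table of the series. They are 8 of 62069 counted genes, and 7 of the 8 passed the filter on low counts, as did 17172 genes in all.

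RNA was sequenced from KMS11, an established human myeloma cell line with the t(4;14) translocation, which places the histone methyltransferase gene NSD2 under an immunoglobulin enhancer. The libraries labelled NSD2 knockdown (n = 2) came from cells that received lentivirus with an shRNA named shM2, and the control libraries (n = 2) from cells labelled control. All cells were exposed to lentivirus and 10 µg/mL polybrene, and RNA was taken at 96 h, 72 h of it after a change of medium. KMS11 is 1 cell line, the labels name no shRNA sequence, and they do not tell whether each library had its own culture. The p-values therefore measure the spread between these libraries, part or all of which may be technical.

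The libraries held 46728940 to 55059566 fragments. NSD2 stood at 919 and 1156 CPM (fragments per TMM-adjusted library size, on the same scale in every library) in the libraries labelled knockdown and at 1121 and 1471 CPM in the control libraries. These ranges overlapped, and the log2 fold change of -0.32 (SE 0.15) had an adjusted p of 0.244 in the quasi-likelihood test of edgeR. It was -0.50 without control library 1 or without knockdown library 2, with adjusted p of 0.0418 and 0.035, but -0.12 when control library 2 and -0.17 when knockdown library 1 was left out, with adjusted p of 0.738 and 0.629. Once GC content and length entered the model it was -0.09 (adjusted p = 0.737). With no filter on low counts it was -0.32 (adjusted p = 0.0173). A term for the library number, which no label ties between groups, gave -0.32 (adjusted p = 0.0197). That term together with GC content and length gave -0.10 (adjusted p = 0.428). The knockdown is therefore named by its label throughout. Plasma cell markers summed to 3089.9 and 3454 CPM in the libraries labelled knockdown and to 3145 and 3286 CPM in the control libraries, and all 7 passed the filter on low counts. The 5 monocyte markers summed to 0.295 CPM or less in every library, and PF4, PPBP and GP9 of the 4 platelet markers had no fragment in any library. B cell markers summed to 38.1 and 35.2 CPM in the libraries labelled knockdown and to 42.8 and 38.4 CPM in the control libraries, of which CR2 gave nearly all. T and NK cell markers summed to 4.92 and 5.10 CPM, against 6.79 and 6.002 CPM in the control libraries. CD3E and CD247 gave nearly all of this sum and passed the filter on low counts, while CD3D was at 0. CD38 of the plasma cell list had 14 and 2 fragments in the libraries labelled knockdown, against 78 and 33 in the control libraries (adjusted p = 0.0284).

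All 8 coding sequences hold the codons for Cys-Cys-Gly that mark the large extracellular loop of the family. CD9 and CD81 hold 2 such sites each, and the others 1. The site shown was chosen by its position past the middle of the coding sequence, 54.1% (CD37) to 66.7% (CD9) along it. The stretches around them, 36 bases of the principal transcript of each gene in GENCODE 29, are shown because they show what the 8 genes share while the bases around it differ. Capitals mark the 3 codons.
CD9: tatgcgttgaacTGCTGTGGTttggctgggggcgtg
CD81: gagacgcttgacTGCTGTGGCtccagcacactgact
CD82: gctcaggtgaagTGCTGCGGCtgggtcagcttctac
CD151: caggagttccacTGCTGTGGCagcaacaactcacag
CD37: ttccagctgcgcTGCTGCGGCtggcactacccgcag
CD53: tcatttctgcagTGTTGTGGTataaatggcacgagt
TSPAN3: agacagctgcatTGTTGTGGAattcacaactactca
TSPAN4: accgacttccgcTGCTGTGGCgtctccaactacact

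The coding sequences ran from 219 codons in CD53 to 281 in CD37, and the marked site began between codon 144 (CD53) and codon 156 (CD81). The codons differ in spelling: CD53 and TSPAN3 have TGT for both cysteines, and the other 6 genes have TGC for the first. Over the 28 pairs of whole principal transcripts, the longest identical run was 10 to 17 bases in 27 pairs and 33 bases between CD82 and TSPAN3. The genes lie on 5 chromosomes, and 4 of them, CD81, CD82, CD151 and TSPAN4, on chromosome 11.

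The comparison of the libraries labelled knockdown with the control libraries asks which of these genes move with the shRNA against NSD2. CD151, the laminin-receptor partner, rose 1.45-fold, and CD37, the leukocyte tetraspanin, fell 1.61-fold. CD9, CD81, CD82, TSPAN3 and TSPAN4 did not pass the test, and CD53 had too few fragments to be tested. Of the 7 genes tested, 1 was higher and 1 lower, while 1.74% of all tested genes were higher and 4.19% lower, 5.93% in either direction.

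**Figure D1:**
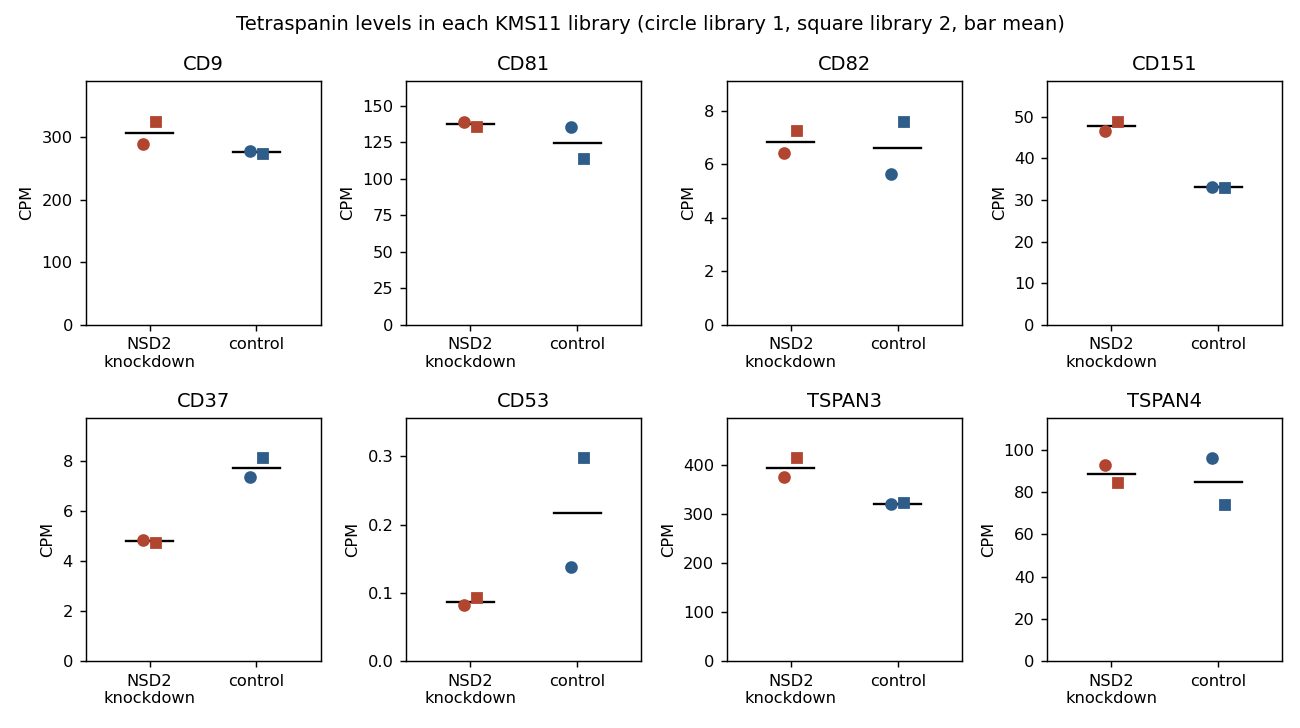
CPM of the 8 tetraspanins in each KMS11 library, with the libraries labelled NSD2 knockdown on the left and the control libraries on the right of each panel; circles are library 1, squares library 2, bars the mean of 2, and every axis starts at 0. CD151 lies between 46.7 and 48.9 CPM in the libraries labelled knockdown, above the 32.8 to 33.2 CPM of the controls, and CD37 lies below its controls.

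CD151 (ENSG00000177697, chromosome 11, 832843 to 839831, plus strand, GRCh37) was counted with 2256 and 2652 fragments in the libraries labelled knockdown and with 1680 and 1548 in the control libraries. Its level was 46.7 and 48.9 CPM in the libraries labelled knockdown and 33.2 and 32.8 CPM in the control libraries. Both libraries labelled knockdown lay above both controls, and the libraries of each group lay close together. The means were 47.8 ± 1.56 CPM in the libraries labelled knockdown and 33.03 ± 0.286 CPM in the control libraries (SD, n = 2 each). On the log2 scale this was a difference of 0.53 (SE 0.094) with a 95% interval of 0.32 to 0.74 and an adjusted p of 0.0111 by edgeR. CD151 was past the threshold under all 15 alternatives, with an adjusted p of 0.0368 or less. It shared 257 exonic bases, 6.53% of its exonic length, with POLR2L, a gene for an RNA polymerase II subunit on the other strand, and fragments were counted without regard to strand. POLR2L stood at 103.5 and 108 CPM in the libraries labelled knockdown, against 90.2 and 77.7 CPM in the control libraries, and did not pass the test (log2 fold change 0.33, adjusted p = 0.0907). How far the shared stretch enters the value of CD151 was not tested.

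CD37 (ENSG00000104894, chromosome 19, 49838428 to 49846592, plus strand) was counted with 234 and 257 fragments in the libraries labelled knockdown and with 372 and 382 in the control libraries. That is 4.84 and 4.74 CPM in the libraries labelled knockdown, against 7.36 and 8.10 CPM in the control libraries, with no overlap of the groups. The means were 4.79 ± 0.0735 CPM in the libraries labelled knockdown and 7.73 ± 0.525 CPM in the control libraries (SD, n = 2 each). The log2 fold change of -0.69 (SE 0.151) had a 95% interval of -1.03 to -0.35 and an adjusted p of 0.0272 by edgeR. The call was lost when either library labelled knockdown was left out. The log2 fold change was -0.71 without the first (adjusted p = 0.0575) and -0.68 without the second (adjusted p = 0.0983). In bulk RNA, fewer cells of a type and less RNA per cell cannot be told apart. The exons of CD37 overlap those of TEAD2 by 7.67% of their length and those of a long noncoding RNA gene by 3.15%. TEAD2 held 32 fragments and the noncoding gene 128 over the 4 libraries, both lower in the libraries labelled knockdown but not past the threshold (adjusted p = 0.153 and 0.265). MS4A1, another B cell gene, had no fragment in the libraries labelled knockdown and 1 in each control library.

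TSPAN3 (ENSG00000140391, chromosome 15, 77336359 to 77376326, minus strand), a widely expressed tetraspanin, had the most fragments of the 8. Its level was 375 and 414 CPM in the libraries labelled knockdown and 320.5 and 322.5 CPM in the control libraries. The groups did not overlap, and the means were 395 ± 27.2 CPM in the libraries labelled knockdown and 321.5 ± 1.395 CPM in the control libraries (SD, n = 2 each). The log2 fold change was 0.30 (SE 0.097), its 95% interval ran over 0.08 to 0.51, and the gene did not pass the test (adjusted p = 0.11). The interval is not adjusted for the number of genes, which is how it can leave out 0 while the adjusted p misses the threshold.

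CD9 (ENSG00000010278, chromosome 12, 6308881 to 6347425, plus strand), which binds the immunoglobulin superfamily proteins IGSF8 and PTGFRN, was at 290.2 and 325 CPM in the libraries labelled knockdown and at 278 and 274 CPM in the control libraries. The groups did not overlap, and the libraries labelled knockdown were more widely spread than the control libraries. The log2 fold change was 0.16, with a 95% interval of -0.06 to 0.38 and an adjusted p of 0.385, and it lay between 0.06 and 0.24 when 1 library was left out.

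CD81 (ENSG00000110651, chromosome 11, 2397407 to 2418627, plus strand), found on lymphocytes and many other cells, was at 139 and 136 CPM in the libraries labelled knockdown and at 136 and 114 CPM in the control libraries. TSPAN4 (ENSG00000214063, chromosome 11, 842808 to 867116, plus strand), known from migrasomes, was at 92.7 and 84.4 CPM, against 95.9 and 74.0 CPM in the control libraries. In both genes the spread between the 2 control libraries, with library 2 the lower, was wider than the difference between the group means. The log2 fold changes were 0.14 (95% interval -0.10 to 0.38, adjusted p = 0.483) for CD81 and 0.06 (95% interval -0.22 to 0.34, adjusted p = 0.821) for TSPAN4. Leaving out 1 library moved CD81 between 0.01 and 0.27.

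CD82 (ENSG00000085117, chromosome 11, 44585977 to 44641913, plus strand), known as a suppressor of metastasis, was at 6.43 and 7.26 CPM in the libraries labelled knockdown and at 5.64 and 7.59 CPM in the control libraries. The groups overlapped, with 285 to 394 fragments per library. The 95% interval of its log2 fold change was wide, at -0.35 to 0.45 (estimate 0.05, adjusted p = 0.9). TSPAN4 and CD82 changed sign when single libraries were left out, with log2 fold changes from -0.12 to 0.26 and from -0.15 to 0.27.

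CD53 (ENSG00000143119, chromosome 1, 111415772 to 111442550, plus strand), a tetraspanin of many leukocytes, was close to 0 in this line. It had 4 and 5 fragments in the libraries labelled knockdown and 7 and 14 in the control libraries, which is 0.0827 and 0.0921 CPM in the libraries labelled knockdown against 0.138 and 0.297 CPM in the control libraries. With so few fragments no fold change was estimated for it here. Over the 7 genes tested, 3 were higher without overlap of the groups (CD9, CD151 and TSPAN3) and 1 was lower (CD37), where 27% of all tested genes were higher and 26.2% lower in this way, 53.2% in either direction. Of the genes that share exonic bases with CD81, CD82 and TSPAN3, CD81-AS1 had 4 fragments over the 4 libraries, the antisense gene across 6.91% of the exons of CD82 had 0, and a noncoding gene over 1.80% of the exons of TSPAN3 had 50. An antisense gene within the span of TSPAN4, with no exonic base in common, had 383 fragments.

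The levels of the 8 genes can be set in order only per length. In the control libraries CD9 led with 85.8 ± 0.841 FPKM (CPM per kilobase of exonic length, SD, n = 2), above 96.8% of the 13037 tested protein-coding genes. TSPAN3 followed with 54.6 ± 0.237, CD81 with 16.9 ± 2.12, TSPAN4 with 14.5 ± 2.65 and CD151 with 8.39 ± 0.0727 FPKM. CD37, CD82 and CD53 were low, at 1.86 ± 0.126, 1.63 ± 0.341 and 0.104 ± 0.0538 FPKM. In the libraries labelled knockdown the same genes stood at 95.6 ± 7.73 (CD9), 67.0 ± 4.62 (TSPAN3), 18.7 ± 0.338 (CD81), 15.2 ± 1.00 (TSPAN4), 12.1 ± 0.397 (CD151), 1.15 ± 0.0177 (CD37), 1.69 ± 0.144 (CD82) and 0.0419 ± 0.00319 (CD53) FPKM. CD81 and TSPAN4 overlapped in the control libraries but not in the others. The order of CD37 and CD82 was CD82 first in the libraries labelled knockdown and CD37 first by mean in the control libraries, where their ranges overlapped.

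**Figure D2:**
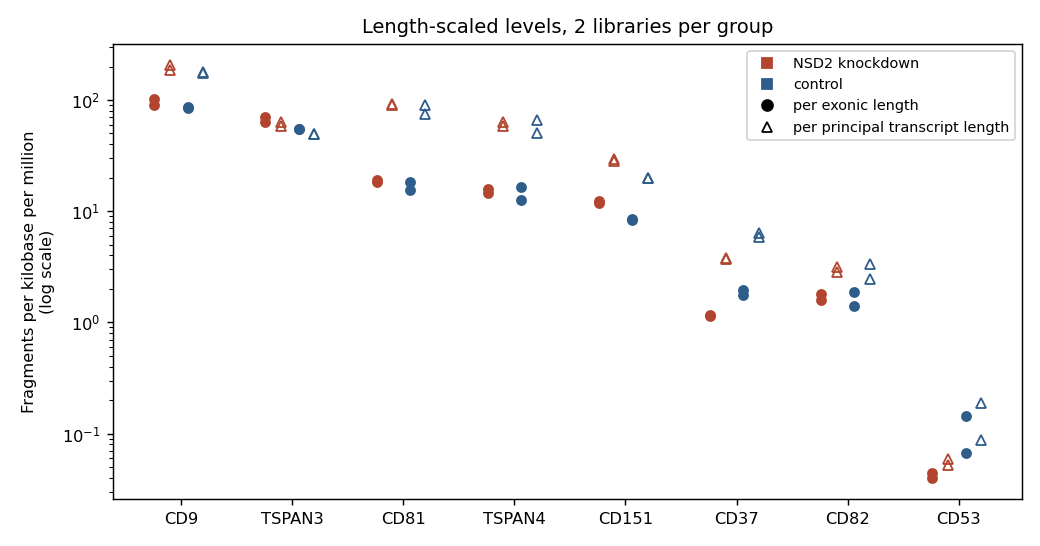
Length-scaled level of each tetraspanin (log axis, FPKM) in the 2 libraries labelled NSD2 knockdown and the 2 control libraries, per exonic length (filled circles) and per length of the principal GENCODE 29 transcript (open triangles). CD9 is highest by both lengths and CD53 lowest, while CD81 and TSPAN4 move above TSPAN3 by the second length in the control libraries.

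The exonic length counts every annotated exon and can exceed the transcript. For CD81 it was 4.85 times the length of the principal transcript, and for TSPAN3 0.911 times. With the principal transcript, a choice made after the data were seen, CD81 averaged 82.1 ± 10.3, TSPAN4 58.1 ± 10.6 and TSPAN3 49.7 ± 0.216 FPKM in the control libraries, and CD9 176 ± 1.73 FPKM (SD, n = 2). The places of TSPAN3, CD81 and TSPAN4 thus depended on the length used, and the other 5 genes kept theirs in the control libraries. In the libraries labelled knockdown CD37 came before CD82 by this length, at 3.78 against 2.99 FPKM.

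RefSeq promoter windows (GRCh38.p14, 250 bases before the gene start of RefSeq, which need not be the start in the deposited table) were at hand for CD9, CD82, CD53 and TSPAN4. The windows of CD53 and TSPAN4 are shown because they lie far apart in base composition. Capitals mark the GC box GGGCGG and the PU.1 core GAGGAA, on either strand.
CD53 at chr1:110872898-110873147, plus strand: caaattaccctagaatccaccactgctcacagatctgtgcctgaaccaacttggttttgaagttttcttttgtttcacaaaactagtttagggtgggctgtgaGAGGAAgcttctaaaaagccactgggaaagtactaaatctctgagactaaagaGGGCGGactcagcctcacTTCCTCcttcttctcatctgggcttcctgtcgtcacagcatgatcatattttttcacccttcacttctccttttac
TSPAN4 at chr11:849606-849855, plus strand: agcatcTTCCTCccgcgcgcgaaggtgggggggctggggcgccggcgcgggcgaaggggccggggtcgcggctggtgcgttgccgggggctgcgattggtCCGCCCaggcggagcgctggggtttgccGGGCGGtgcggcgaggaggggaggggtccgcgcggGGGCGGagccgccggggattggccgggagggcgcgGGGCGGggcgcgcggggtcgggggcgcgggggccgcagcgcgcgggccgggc

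The CD53 window had 44% G and C, 2 CpG, 1 GC box and 2 PU.1 cores. The TSPAN4 window had 84% G and C, 43 CpG, 4 GC boxes and 1 PU.1 core. The CD82 window had 26 CpG and 4 GC boxes, and the CD9 window 1 CpG and no GC box. Over the 35116 windows of the same length the median was 11 CpG, 42.6% held a GC box and 23.6% a PU.1 core. CD9, CD82 and TSPAN4 did not pass the test between the groups, and CD53 was not tested.

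The superfamily of 33 human tetraspanin genes placed the 8 in context. CD63, the tetraspanin of late endosomes and exosomes, was the highest of the 33 at 131 ± 11.2 FPKM in the libraries labelled knockdown and 119.7 ± 1.498 FPKM in the control libraries. Per exonic length, CD63, CD9 and TSPAN3 together held 78.5% of the summed FPKM of the superfamily in the libraries labelled knockdown and 76.5% in the control libraries. These shares depend on the length used. Per principal transcript length CD81 and TSPAN4 averaged 82.1 and 58.1 FPKM in the control libraries, above the 49.7 FPKM of TSPAN3. Of the 33 genes, 9 averaged at least 5 FPKM over all libraries, 18 were under 1 FPKM in the control libraries, and TSPAN2, TSPAN8 and UPK1B had no fragment in any library. Of 23 tested, 1 rose (CD151) and 1 fell (CD37), or 8.70% called, near the 5.93% of all tested genes. Their median log2 fold change was -0.15, beside -0.00165 over all tested genes. With 1 library left out, 0 to 3 of the 23 fell: none of them without knockdown library 2, 2 when control library 2 and 3 when control library 1 was left out, and 3 fell with no filter.

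**Figure D3:**
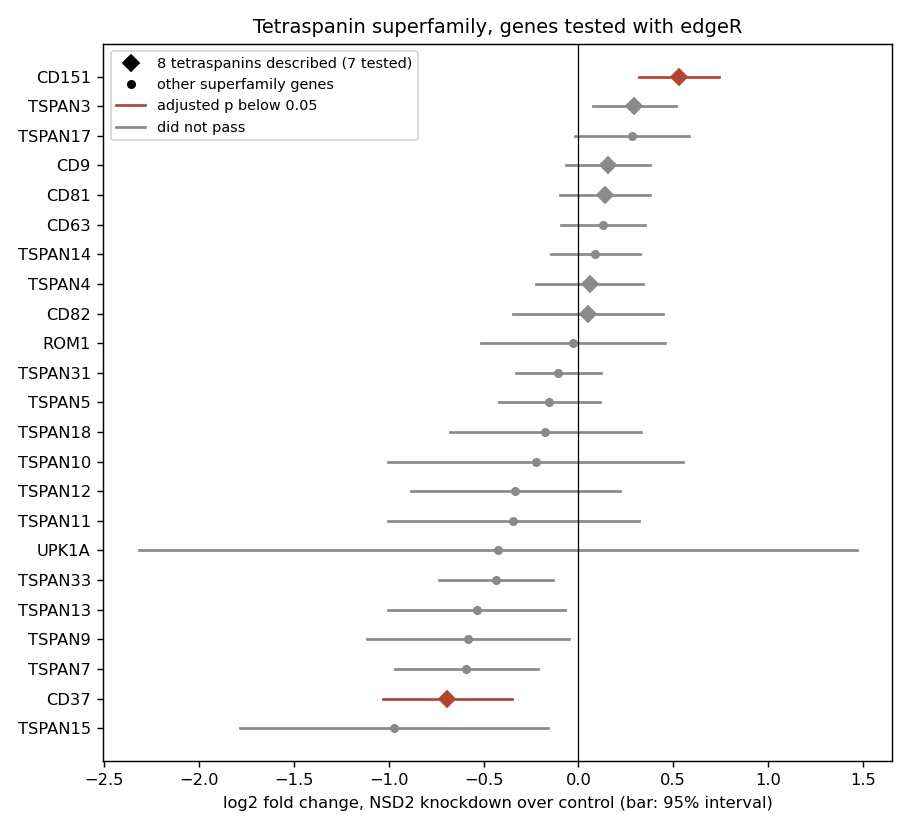
Log2 fold change, libraries labelled NSD2 knockdown over control libraries, with its 95% interval for the 23 tetraspanin genes tested by edgeR, 2 libraries per group; diamonds are the genes described here and red marks an adjusted p below 0.05. CD151 at 0.53 and CD37 at -0.69 are the 2 genes past the threshold.

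The other tetraspanins of at least 5 FPKM did not pass the test. CD63 was at 324 and 365 CPM in the libraries labelled knockdown and at 318 and 312 CPM in the control libraries (log2 fold change 0.13, adjusted p = 0.488). TSPAN33, TSPAN5 and TSPAN31 had log2 fold changes of -0.44 (adjusted p = 0.0936), -0.15 (adjusted p = 0.499) and -0.11 (adjusted p = 0.58). TSPAN5 and TSPAN33 belong to the subfamily that escorts the protease ADAM10. ADAM10 itself was at 121.5 and 141 CPM in the libraries labelled knockdown and at 125 and 154 CPM in the control libraries (adjusted p = 0.714).

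CD151 and TSPAN4 are neighbours, with 2977 bp between their spans, and POLR2L reaches into this gap. Within 50000 bp of CD151, none of the other tested protein-coding genes passed the test, TSPAN4 included. CRACR2B, 852 bp away, was at 34.1 and 34.0 CPM in the libraries labelled knockdown and at 27.8 and 23.5 CPM in the control libraries (log2 fold change 0.41, adjusted p = 0.0641). Whether CD151 differs from its neighbours in its response was not tested.

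**Figure D4:**
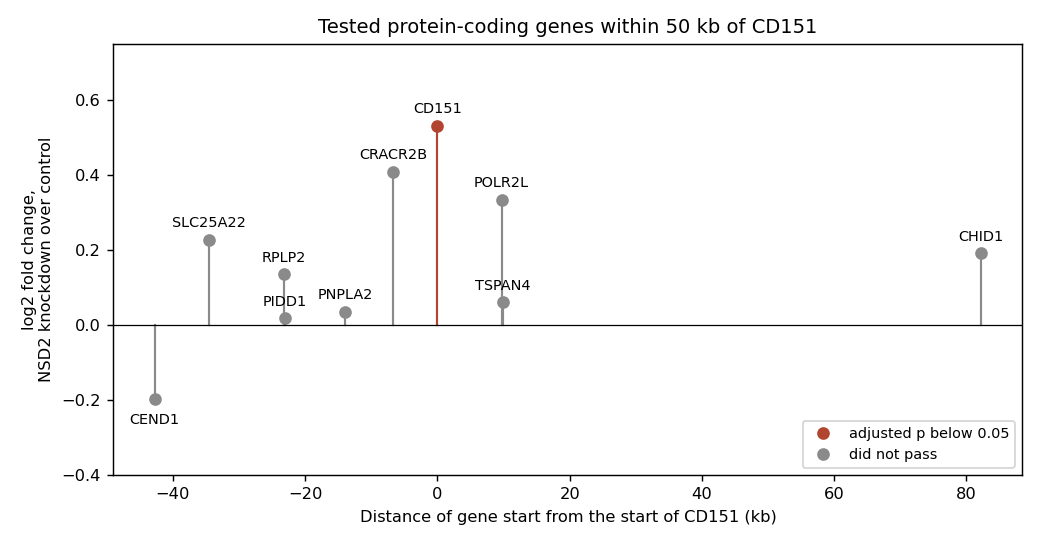
Log2 fold change (libraries labelled NSD2 knockdown over control libraries, 2 each) of the tested protein-coding genes within 50000 bp of CD151, placed by the distance of their start from the start of CD151 in kb. CD151 at 0.53 is past the threshold, and CRACR2B at 0.41, POLR2L at 0.33 and TSPAN4 at 0.06 are not.

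Genes for known partners of the tetraspanins were read in 4 lists. Of 8 tested integrin chains, 2 fell and 0 rose, with a median log2 fold change of -0.38, while 4.19% of all tested genes fell and 1.74% rose. ITGB7, the beta chain that pairs with ITGA4, fell to 1909 and 2492 CPM in the libraries labelled knockdown, against 3217 and 3825 CPM in the control libraries (log2 fold change -0.68, adjusted p = 0.0238). ITGAV, an alpha chain of vitronectin receptors, fell to 16.0 and 17.8 CPM, against 22.9 and 25.4 CPM in the control libraries (1.43-fold, adjusted p = 0.0319). Leaving out control library 2 gave 0 falls, and 1 was left without knockdown library 1 or with GC content and length terms.

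The alpha chains that CD151 binds did not pass the test. ITGA6 was at 9.70 and 9.32 CPM in the libraries labelled knockdown and at 12.4 and 14.4 CPM in the control libraries (log2 fold change -0.49, adjusted p = 0.061). ITGA3 was at 49.8 and 51.1 CPM, against 56.9 and 62.9 CPM in the control libraries (-0.25, adjusted p = 0.166). In both genes the libraries labelled knockdown were below the controls without overlap, as in 26.2% of all tested genes. CD151 was above without overlap, as were 27% of all tested genes. ITGA4, a partner of CD81 and CD82, was at 95.9 and 90.8 CPM, against 91.4 and 95.7 CPM in the control libraries, with a log2 fold change of 0.00 to 2 decimals and a 95% interval of -0.21 to 0.20.

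**Figure D5:**
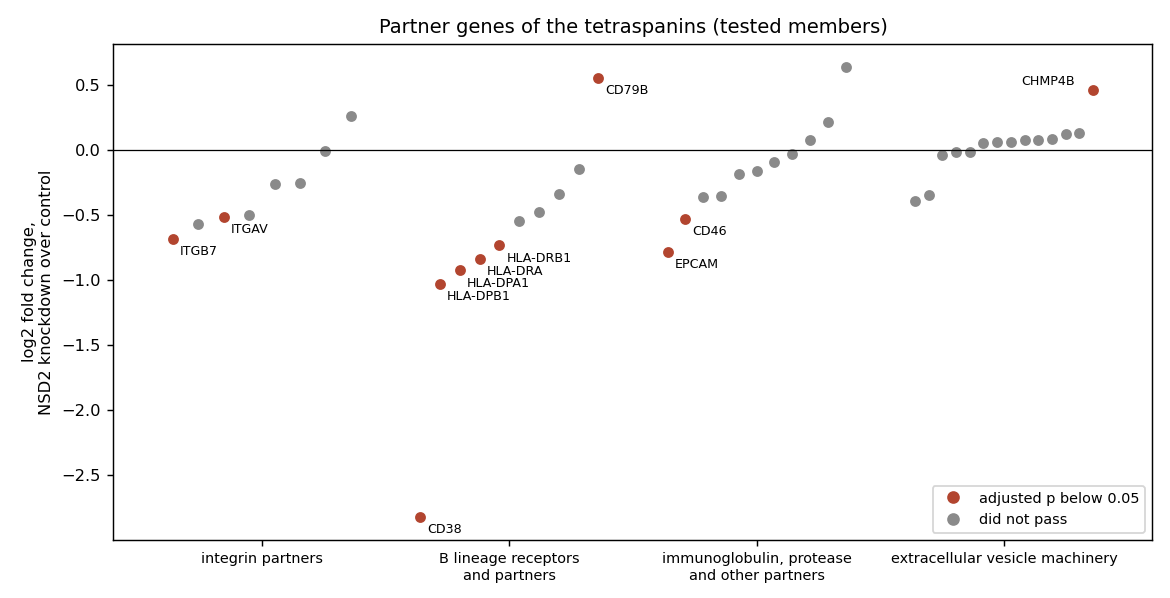
Log2 fold change (libraries labelled NSD2 knockdown over control libraries, 2 each) of the tested genes of 4 partner lists, ordered by value within each list; named red points have an adjusted p below 0.05. ITGB7, ITGAV, CD38, 4 class II genes, EPCAM and CD46 are lower, and CD79B and CHMP4B are higher.

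Among B lineage receptors and co-receptor partners, 5 of 10 tested genes fell and 1 rose, beside the same 4.19% and 1.74% over all tested genes. The median log2 fold change was -0.64. The 5 were CD38, at 1.54 CPM or less in every library, and the class II genes HLA-DRA, HLA-DRB1, HLA-DPA1 and HLA-DPB1. CD74, CD79A, CR2 and IFITM1 did not pass the test (adjusted p = 0.0678, 0.2751, 0.4545 and 0.5555). HLA-DRA, a class II chain found in tetraspanin patches of antigen-presenting cells, fell 1.78-fold, to 683 and 589 CPM in the libraries labelled knockdown, against 1208 and 1062 CPM in the control libraries (adjusted p = 0.00354). HLA-DPB1 fell 2.04-fold and HLA-DPA1 fell with a log2 fold change of -0.92, with adjusted p of 0.00517 and 0.00872. The HLA genes have near copies, so the counting may have split their fragments. CD79B, a chain of the B cell receptor, rose 1.47-fold (adjusted p = 0.0127), a call lost without knockdown library 2.

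Of 11 tested immunoglobulin superfamily, protease and other partners, 2 fell and 0 rose, against 4.19% and 1.74% of all tested genes. There was 1 rise when control library 1 or knockdown library 2 was left out, and 1 with no filter on low counts. EPCAM, an adhesion molecule that CD9 can bind, fell to 31.9 and 29.3 CPM in the libraries labelled knockdown, against 59.2 and 45.6 CPM in the control libraries (1.72-fold, adjusted p = 0.00859). EPCAM is also one of 5 epithelial markers, and gave most of their sum. All 3 tested ones fell, with log2 fold changes of -1.57 for KRT18 (adjusted p = 0.00588), -1.05 for CDH1 (adjusted p = 0.0248) and -0.78 for EPCAM. The summed level of the 5 was 34.4 and 32.9 CPM in the libraries labelled knockdown and 66.3 and 53.8 CPM in the control libraries; their part in the results for the tetraspanins was not tested. CD46, a complement regulator, fell 1.44-fold (adjusted p = 0.0116). IGSF8 was at 83.0 and 88.6 CPM in the libraries labelled knockdown, against 98.1 and 96.5 CPM in the control libraries (adjusted p = 0.275), and PTGFRN had no fragment in any library.

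Extracellular vesicle genes gave 1 rise and 0 falls among 14 tested, or 7.14% called, near the 5.93% of all tested genes. There was 1 fall when control library 2 or knockdown library 1 was left out, and 1 with no filter. CHMP4B, which encodes a filament subunit of the ESCRT-III complex, rose to 762.5 and 799 CPM in the libraries labelled knockdown, against 576 and 557.5 CPM in the control libraries (1.38-fold, adjusted p = 0.0215). It was not past the threshold without control library 2 or without knockdown library 2, where the list held 0 rises. PDCD6IP, TSG101 and SDCBP, the genes for ALIX, an ESCRT-I subunit and syntenin, had adjusted p of 0.742, 0.666 and 0.862.

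The header of the authors' deposited table names its contrast M2 over LUC, while the counting command there names the other alignments shScr. The log2 fold change of CD151 in the authors' deposited table was 0.55 (SE 0.169, adjusted p = 0.0623), and that of CD37 was -0.67 (SE 0.273, adjusted p = 0.328). For CD53 the authors' deposited table gives -1.03 (SE 0.522, adjusted p = 0.644) on a base mean of 1334. The mean normalized count of CD53 in the 4 count files was 7.59, so that base mean is 176 times higher. CD151 had a base mean of 6910 in the authors' deposited table against 2015 in the 4 files, and CD9 7498 against 14560. Over all tested genes the base mean of the authors' deposited table was within 1.1-fold of the 4-library mean for 22.3%. The log2 fold changes of the authors' deposited table lay closer to those of the main test. They were 0.17 against 0.16 for CD9, 0.15 against 0.14 for CD81 and 0.07 against 0.05 for CD82. TSPAN3 had 0.31 against 0.30, TSPAN4 0.08 against 0.06 and NSD2 -0.30 against -0.32. Which libraries entered the model of the authors' deposited table is not known, and its values were not mixed with those above.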

How the data were processed

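Each library has a deposited file of fragment counts by Ensembl gene, not normalized. Per the submitters' processing notes, reads were trimmed with Trim Galore 0.3.7, aligned to GRCh37 with STAR 2.5.3, handled with Picard and assigned to genes by featureCounts (Subread 1.4.6). Counting, per the file headers, ignored strand and used alignments named as free of duplicates. The authors' deposited table holds a log2 fold change with its SE, a Wald score, p-values raw and adjusted, a base mean (signal of normalized counts) and other annotation such as exonic length. Its 4 per-sample columns stayed out of use, as did 1 row without a gene name in each count file.

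Counts were tested in edgeR 4.0.16 (R 4.3.3) by its quasi-likelihood F test. TMM factors scaled the libraries, genes were filtered by the default of edgeR, and the model held the group alone. Benjamini-Hochberg adjustment covered 17172 genes, with a threshold of 0.05. Levels are CPM on TMM-scaled libraries, and FPKM is CPM per kilobase of exonic length. Intervals of 95% rest on the model, whose coefficient of biological variation was 9.81%. Replicate libraries differed by more than counting noise (chi-square per degree of freedom 22.7 and 25.9).

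The procedure was tested on simulated data. It called 53.1% of genes changed 1.5-fold, 82.8% of those changed 2-fold and 95.3% of those changed 4-fold. Of its 155 calls 7 were false, and with no gene changed it made 0 calls. A gene that did not pass may therefore still have changed by 1.5-fold or less. Alternatives were scaling by RLE, by upper quartile or by library size alone, no filter, a filter of 1 CPM in 2 libraries, DESeq2 1.42.0, limma-voom (limma 3.58.1), robust empirical Bayes, a replicate block and leaving out each library. Terms for GC content and length (mgcv 1.9.3), alone and with the block, and the principal transcript length were added after the data were seen.

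The 8 genes and the partner and marker lists were chosen with earlier results of these data known. Named beside the 8 were superfamily genes past the threshold or of at least 5 FPKM, up to 3 partners per list and direction by smallest adjusted p, and set direct partners. POLR2L, TEAD2 and CRACR2B were named as overlapping or nearest neighbours, and the vesicle genes PDCD6IP, TSG101 and SDCBP and the epithelial markers KRT18 and CDH1 were chosen after their values were seen. The other tested genes of the B lineage list were named to show the whole list. No genes were ranked by likeness of pattern, since 4 libraries are too few. Symbols on alternative haplotypes were left out, and 1 gene that the rule named is not reported here. Figures were drawn with matplotlib 3.10.9.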

Additional observations from a re-analysis of the deposited data

How the results depend on the processing

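Of 105 values of the 7 tested tetraspanins under the 15 alternatives, 97 kept their direction and their side of the threshold, 2 lost and 2 gained a call, and 4 changed sign. The sign changes were those of CD82 and TSPAN4 with 1 library left out (-0.15 to 0.27 and -0.12 to 0.26). The libraries share numbers, but nothing in the labels ties equal numbers together. Number 2 minus number 1 correlated at 0.429 between the groups over 10539 genes. With the replicate block 2 of the tetraspanins were higher, as TSPAN3 passed (log2 fold change 0.29, adjusted p = 0.0225), and 2 were higher with the block and GC and length terms (TSPAN3 0.35, adjusted p = 0.00201). With the block 1327 of the 17172 tested genes were higher and 1992 lower, and NSD2 had a log2 fold change of -0.32 (adjusted p = 0.0197). With the block and GC and length terms 2290 of these genes were higher and 2007 lower, and NSD2 had -0.10 (adjusted p = 0.428). The counts of the lists below stand beside these larger counts over all genes. With GC and length terms alone NSD2 had -0.09 (adjusted p = 0.737). Of the 23 tested tetraspanins of the superfamily, 2 were higher and 5 lower with the block, and 3 higher and 5 lower with the block and GC and length terms. With the block 6 of 8 tested integrin chains were lower. Of 11 tested immunoglobulin, protease or other partners 1 was higher, and of 14 tested vesicle genes 2 were lower. With the block and GC and length terms these counts were 5, 2 and 2, and 4 of the other partners were lower. Without the block, TSPAN3 had an adjusted p of 0.0592 or more.

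All genes gave 299 higher and 719 lower in the main test. No filter gave 658 higher and 1490.0 lower and NSD2 at -0.32 (adjusted p = 0.0173). With 1 library left out, 172 to 523 genes were higher and 663 to 1153 lower, 0 to 1 of the tetraspanins was lower, and the log2 fold change of NSD2 was -0.50 to -0.12; the lone library of a group is then assumed to vary like the others. The causes were not tested. Leaving out a library moved CD151 between 0.49 and 0.56 and CD37 between -0.76 and -0.63. For CD53, its 4 to 14 fragments per library set the limit.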
